A study of Homo sapiens with 8 samples.

Results

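A small open reading frame (smORF) is a reading frame of up to 150 codons that can encode a microprotein. Of the 24199 smORFs counted in this study, 839 lay in non-coding genes for which the deposited annotation gave an Ensembl identifier and no gene symbol. The rule used the annotation alone: the location class had to be non-coding, the field of gene names had to be empty, and the identifier had to be filled. It was set with earlier results of these data known. A single gene that meets this, ENSG00000286733, was left out by the rule. The 839 smORFs fell in 348 host genes, counted by the first identifier given, and 190 of these genes held 1 smORF each. The other smORFs of the non-coding class numbered 4554.

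Ribosome profiling (Ribo-Seq), in which the RNA fragments covered by ribosomes are sequenced, was done on Caco-2 cells. Caco-2 is an established line from a human colon adenocarcinoma, and its cells take on features of absorptive enterocytes when they are left to differentiate. The 8 libraries formed 4 groups of 2 replicates: undifferentiated cells, which received no micelles, a differentiated control, and differentiated cells given either micelles without lipid or lipid micelles with BSA, oleic acid and cholesterol. All of these cells were of this single tumour line. Library totals ran from 506382 to 884711 smORF counts.

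Genes known only by an identifier are mostly long non-coding RNAs (lncRNAs) that have been mapped from transcripts but not studied one by one. Many lie opposite a coding gene, or start back to back with one from a shared promoter region, while others stand far from any coding gene. Ribosomes are known to engage such RNAs, most often over short frames that are poorly conserved, and a footprint shows that a ribosome was there but not that a stable protein was made. Footprints also follow the amount of RNA, so a change in footprints cannot be told apart here from a change in the host RNA. In bulk samples, fewer cells of a type and less RNA per cell cannot be told apart either.

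The sequences below are from smORFs that stood at the ends of the comparison of differentiated control with undifferentiated cells, and from the most abundant ones. They were copied from the deposited table, are written 5′ to 3′ on the coding strand without the stop codon, and match hg38 over the deposited exons. Capitals mark the first codon. IEC_23317 and IEC_12009 were the most raised, IEC_19948 was among the most lowered, and IEC_24036 was among the most abundant. IEC_19948 begins with a codon other than ATG.
IEC_23317: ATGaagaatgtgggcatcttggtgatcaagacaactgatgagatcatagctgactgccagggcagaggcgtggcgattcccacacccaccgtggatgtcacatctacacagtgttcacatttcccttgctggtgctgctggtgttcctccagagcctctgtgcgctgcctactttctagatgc
IEC_12009: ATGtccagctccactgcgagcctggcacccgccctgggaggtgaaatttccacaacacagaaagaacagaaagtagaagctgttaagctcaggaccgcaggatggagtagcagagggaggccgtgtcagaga
IEC_19948: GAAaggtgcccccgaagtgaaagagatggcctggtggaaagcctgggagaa
IEC_24036: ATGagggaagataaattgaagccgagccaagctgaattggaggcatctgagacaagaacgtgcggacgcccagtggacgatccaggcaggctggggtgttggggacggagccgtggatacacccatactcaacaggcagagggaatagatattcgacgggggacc

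The 839 frames ran from 6 to 148 amino acids, with a median of 44. Of these, 588 (70.1%) began with ATG. The near-cognate codons CTG, TTG, GTG and ACG opened 8, 6, 2 and 2 smORFs, and 233 (27.8%) opened with other codons. In 315 (37.5%) the frame ran across a splice junction, and 458 (54.6%) overlapped a repeat in the RepeatMasker annotation. The 4554 other non-coding smORFs had a median of 39 amino acids, began with ATG in 61.5%, were spliced in 43.7% and overlapped a repeat in 53.8%. These shares were not tested against each other.

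PhyloCSF compares aligned genomes and is above 0 where substitutions favour a conserved coding frame. A score was present for 764 of the 839 smORFs, and the deposited mean score was above 0 for 7 of them. That was 0.834% of the 839, beside 1.21% of the other non-coding smORFs and 1.75% of all 24199. The score deposited as the maximum was above 0 for 58. It can lie under the mean, as in IEC_20770 (mean -0.951, maximum -6.268), so it is not read as the highest score within the frame. The 7 were 2 frames in ENSG00000229953 (IEC_19379 and IEC_19381) and 1 each in ENSG00000259933 (IEC_09934), ENSG00000284624 (IEC_11387), ENSG00000283162 (IEC_11330), ENSG00000254610 (IEC_23191) and ENSG00000242588 (IEC_10880). IEC_19379 and IEC_19381 lie opposite the coding gene BCAN and IEC_09934 lies opposite PKD1. Whether the coding gene opposite adds to these scores was not tested. The remaining frames had no coding gene within 5 kb. IEC_23191, a frame on chromosome 11, had the most reads of the 7, with 2 and 6 counts in undifferentiated libraries, 22 and 30 in control, 23 and 44 with micelles without lipid and 50 and 40 with lipid micelles. All 6 of its differentiated libraries lay above both undifferentiated ones, and its log2 fold change in control against undifferentiated cells was 2.57 ± 0.54 (SE, adjusted p = 0.00139 by edgeR). In IEC_23191 39.3% of the stretches of 28 bases occur more than once in hg38, so some of its reads may belong elsewhere. This share was 48.1% in IEC_11387, 54.1% in IEC_10880 and 0 in IEC_09934, IEC_19379 and IEC_11330. IEC_19381 is shorter than 28 bases.

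The label "without a symbol" holds for the deposited annotation and less for a later one. In GENCODE release 44, 345 of the 348 host genes were found, and 75 of them have since received a symbol, such as EPIC1 and LINC02985. These 75 genes held 217 of the 839 smORFs. In control against undifferentiated cells 44 of the 121 tested among them were called higher (36.4%), with a median log2 fold change of 0.90, whereas 139 of 291 were called higher in genes still without a symbol (47.8%), with a median of 1.50. The 25 smORFs with a host identifier that GENCODE 44 lacks held 0 higher calls and 13 lower ones among 20 tested. All 13 belong to 1 gene, ENSG00000239467, and to 1 cluster of overlapping frames that share reads. These differences were not tested. In the deposited biotypes 759 smORFs lay in lncRNA genes alone, 57 had a pseudogene among their host biotypes, and 15 had a protein-coding gene among them. GENCODE 44 also placed 23 smORFs, in 2 host genes, over a same-strand exon of a coding gene, and their counts cannot be assigned to the non-coding RNA alone.

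The 839 smORFs were spread over 23 chromosomes and formed 510 clusters of frames that overlap on the same strand. A read inside several overlapping frames can add to each of them, so 486 smORFs that overlap another one are not independent measurements. By position, 342 had no coding gene within 5 kb, 226 lay opposite a coding gene, and 153 lay within 5 kb of the start of a coding gene on the other strand (head to head). Another 82 lay within 5 kb of a coding gene in some other arrangement, and 13 lay in a same-strand intron. The counting options for strand are not stated, so counts of the 226 antisense smORFs may include reads of the gene opposite. For 655 smORFs no stretch of 28 bases, about the length of a footprint, occurred elsewhere in hg38, while 150 held at least 1 such repeated stretch and 34 were shorter than 28 bases.

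The smORFs took a larger share of all smORF counts in differentiated than in undifferentiated cells. They held 0.847% and 0.822% of the counts in the undifferentiated libraries, 1.85% and 1.91% in the control libraries, 1.74% and 1.76% with micelles without lipid, and 1.74% and 1.92% with lipid micelles. The group values were 0.835% ± 0.0179 in undifferentiated, 1.88% ± 0.0432 in control, 1.75% ± 0.00960 for micelles without lipid and 1.83% ± 0.128 for lipid micelles (SD, n = 2 each). The 6 differentiated libraries did not overlap with the undifferentiated pair. With 2 libraries against 2, the two-sided exact permutation test cannot go below p = 0.333, and control against undifferentiated gave that value (0.667 after Benjamini-Hochberg adjustment over 4 comparisons). The exact permutation p was also 0.333 for micelles without lipid against control, and 1 for the other two comparisons of the differentiated groups. In the other non-coding smORFs the share was 17.9% ± 1.64 in undifferentiated and 21.2% ± 1.12 in control cells. It was 23.8% ± 1.42 for micelles without lipid and 20.2% ± 1.43 for lipid micelles. That class did not overlap either, with 16.7% and 19.1% in undifferentiated libraries and 19.2% to 24.8% in the 6 differentiated ones. The lack of overlap is therefore not particular to the smORFs in genes without a symbol.

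More of the smORFs reached 10 counts after differentiation. Detection at 10 counts or more was seen for 173 and 149 smORFs in the undifferentiated libraries, 267 and 399 in control, 313 and 365 with micelles without lipid and 331 and 436 with lipid micelles. These numbers follow depth within each group. When each library was thinned at random to 506382 counts, the total of the smallest one, 127 and 121 were detected in undifferentiated libraries, 267 and 276 in control, 275 and 259 with micelles without lipid and 245 and 275 with lipid micelles. These numbers were not set beside those of other smORFs, so the rise is not shown to be particular to the 839. Across the 8 libraries 539 smORFs (64.2%) reached 10 counts in at least 1 library and 80 (9.54%) in all 8, while 54 had no count at all.

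**Figure D1:**
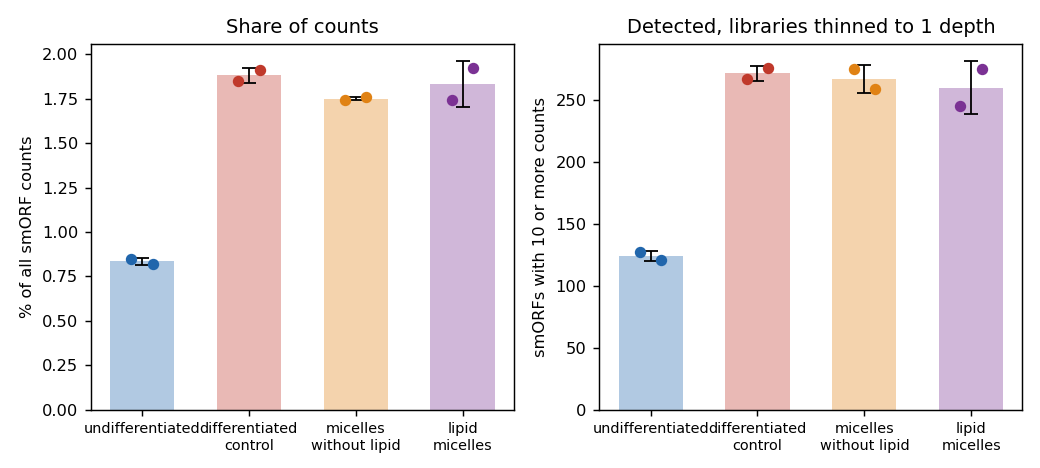
Left, percent of all smORF counts that fell in the 839 smORFs. Right, number of these smORFs with 10 or more counts after each library was thinned to 506382 counts. Points are libraries, bars are means and error bars are SD (n = 2). Both undifferentiated libraries, at 0.847% and 0.822%, sit below all 6 differentiated libraries, and the differentiated groups overlap.

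Counts were concentrated in few smORFs, more so in differentiated cells. The 10 smORFs with the most counts in a library held 11.1% and 10.7% of the counts of all 839 in the undifferentiated libraries and between 20.0% and 22.0% in the 6 differentiated ones. IEC_23668 had the most counts over all libraries and held 1.18% and 0.666% in the undifferentiated libraries against 5.11% to 6.65% in the differentiated ones. This concentration was not compared with that of other smORFs.

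The first comparison asked which of these smORFs changed when Caco-2 cells differentiated. Of the 839, 432 smORFs in 171 host genes had enough counts to be tested, 183 were called higher and 26 lower in control than in undifferentiated cells (edgeR quasi-likelihood, adjusted p under 0.05 and a log2 fold change of at least 1 in size). That was 42.4% higher and 6.02% lower, where 17.7% of all 15182 smORFs tested were called higher and 15.6% lower. The median log2 fold change of the 432 was 1.22, or 1.15 with smORFs near 0 counts held at their bound, against 0.01 over all smORFs tested. The other 407 were too low to test, and a smORF could pass through the group in which it was high, so the 432 do not stand for all 839.

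Other smORFs outside the 5′ leaders of coding genes also had medians above 0. In the 2610 other non-coding smORFs tested, 926 (35.5%) were called higher and 214 (8.20%) lower, with a median of 0.81. In 879 smORFs in 3′ untranslated regions the median was 0.95, with 320 higher and 24 lower. In 11112 upstream smORFs it was -0.21, with 1207 higher and 2088 lower. No test was made between these classes.

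Among the 80 smORFs with at least 10 counts in every library, where passing does not depend on a rise, 31 were called higher and 2 lower, with a median log2 fold change of 0.78. Over all smORFs that passed this stricter filter 12.6% were called higher and 11% lower. DESeq2 called 116 higher and 8 lower of 566 tested. This count and those that follow in this paragraph were not set beside a share over all smORFs. Counting 1 smORF per cluster of overlapping frames left 94 higher and 12 lower of 238 tested, and without undifferentiated replicate 1 the total called fell from 209 to 134.

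**Figure D2:**
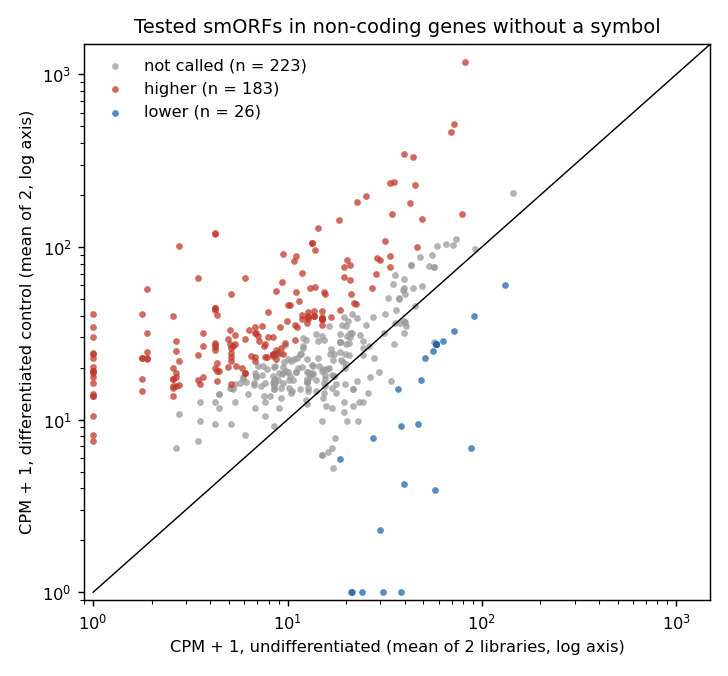
Mean CPM + 1 in undifferentiated (x axis) and differentiated control cells (y axis) for the 432 smORFs tested, both axes logarithmic. CPM is scaled to the TMM-adjusted library total. The line marks equal values, and the 183 smORFs called higher and 26 called lower are in colour. Most points lie above the line, and the highest point is IEC_23668.

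Most called host genes held higher calls. Of the 171 host genes tested, 77 held a smORF called higher and 8 a smORF called lower. For the other non-coding smORFs these numbers were 299 and 89 of 688 host genes tested, so a similar share of host genes held a higher call there. The host genes of all smORFs were not counted in this way. None of the 171 held calls in both directions. Of the 43 genes with 2 or more calls this was 0%, beside 9 of 214 such host genes of the other non-coding smORFs (4.21%), a difference that was not tested. Overlapping frames of a gene share reads, so their calls are not independent. With 1 smORF kept per host gene, the one with the most counts, 69 of 171 were called higher and 7 lower. In 46 host genes smORFs in separate, non-overlapping clusters could be compared, and in 44 of them the medians of all clusters had the same sign. The 2 exceptions were ENSG00000225489, with medians from -0.61 to 0.49, and ENSG00000256594, from -0.93 to 0.45, and no smORF of either was called. They were picked out after their values were seen. The 69 of 171 and the 44 of 46 were not set beside a share over other smORFs.

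The most raised smORFs came from genes on several chromosomes. They were ranked by log2 fold change, or by the fold against 3 counts per library where a group had no more than that in either library. IEC_23317 (chr5:151412588-151425328, minus strand, 61 codons in 2 exons of ENSG00000253897) lies 11718 bases from SLC36A1, which encodes a proton-coupled amino acid transporter. It had 3 and 1 counts in undifferentiated libraries, 63 and 90 in control, 33 and 62 with micelles without lipid and 67 and 80 with lipid micelles. All 6 differentiated libraries were far above both undifferentiated ones. The ratio of control to undifferentiated cells was 35.8 (95% counting interval 13.7 to 133, from 153 against 4 counts), and the edgeR adjusted p was 5.29e-07. The interval is an exact binomial one, and it covers counting error alone.

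IEC_12009 (chr5:1252254-1255337, plus strand, 44 codons in 3 exons of ENSG00000287486) lies opposite TERT, the gene of the catalytic subunit of telomerase. It had 0 and 2 counts in undifferentiated libraries, 60 and 64 in control, 59 and 57 with micelles without lipid and 85 and 76 with lipid micelles. The ratio of control to undifferentiated cells was 58.1 (95% counting interval 15.7 to 485; adjusted p = 2.40e-06 by edgeR). All 6 smORFs of this gene were tested and all 6 were called higher, in 3 clusters, with fitted log2 fold changes between 4.45 and 6.66. Fitted values of frames with so few undifferentiated counts depend on the prior count.

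IEC_23668 (chr6:158298402-158303341, minus strand, 108 codons in 2 exons of ENSG00000287591) was both the third most raised and the most abundant, at 2695 CPM per kb of frame averaged over the 8 libraries. It lies opposite TULP4, a gene of the tubby-like family. It had 67 and 32 counts in undifferentiated libraries, 566 and 971 in control, 512 and 725 with micelles without lipid and 811 and 1132 with lipid micelles. Its level was 81.1 ± 34.2 CPM in undifferentiated and 1185 ± 111 CPM in control cells (SD, n = 2), a log2 fold change of 3.86 ± 0.30 (SE, adjusted p = 8.69e-08 by edgeR). In this frame 42.4% of the 28-base windows occur more than once in hg38, so some of its reads may belong elsewhere.

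IEC_06156 (34 codons) lies in ENSG00000235122 on chromosome 6, 13883 bases from CRISP1, which encodes a sperm-binding secretory protein of the epididymis. It had 3 and 3 counts in undifferentiated libraries, 33 and 51 in control, 31 and 41 with micelles without lipid and 49 and 52 with lipid micelles, and its ratio was 13.1 (95% counting interval 5.78 to 36.7; adjusted p = 9.99e-06 by edgeR). All 10 smORFs of this gene were called higher, but they form 1 cluster of overlapping frames and share reads. IEC_06407 (26 codons, ENSG00000234460, chromosome 9) had 4 and 6 counts in undifferentiated libraries, 51 and 62 in control, 59 and 73 with micelles without lipid and 54 and 92 with lipid micelles. Its log2 fold change was 3.39 ± 0.41 (SE, adjusted p = 8.42e-06 by edgeR).

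IEC_23306 and IEC_23991 lie opposite coding genes. IEC_23306 (76 codons, ENSG00000285715, chromosome 10) faces TACC2, a centrosome-associated coiled-coil gene, and had 9 and 6 counts in undifferentiated libraries, 43 and 95 in control, 62 and 80 with micelles without lipid and 51 and 82 with lipid micelles, a log2 fold change of 3.05 ± 0.38 (SE, adjusted p = 1.15e-05 by edgeR). IEC_23991 (95 codons, ENSG00000276317, chromosome 20) faces SLCO4A1, an organic anion transporter gene. It had 12 and 9 counts in undifferentiated libraries, 59 and 131 in control, 83 and 96 with micelles without lipid and 112 and 128 with lipid micelles, a log2 fold change of 3.03 ± 0.35 (SE, adjusted p = 4.41e-06 by edgeR). In both, no differentiated library overlapped with an undifferentiated one.

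IEC_20400 (72 codons, first codon TTG, chromosome 4) was assigned to ENSG00000284968 and ENSG00000285458. The second of these is a coding gene in GENCODE 44, on the same strand. It had 14 and 15 counts in undifferentiated libraries, 108 and 141 in control, 136 and 177 with micelles without lipid and 182 and 219 with lipid micelles, a log2 fold change of 3.01 ± 0.30 (SE, adjusted p = 1.11e-06 by edgeR). IEC_24036 (55 codons, ENSG00000289352, chromosome 7) ends the list of the 10 most raised and lies 221 bases from IQCE, a gene of the cilium. It had 29 and 23 counts in undifferentiated libraries, 156 and 272 in control, 254 and 226 with micelles without lipid and 241 and 288 with lipid micelles, a log2 fold change of 2.92 ± 0.29 (SE, adjusted p = 1.19e-06 by edgeR). All 4 smORFs of ENSG00000289352 were called higher.

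IEC_20770 (35 codons, ENSG00000254248, chromosome 8) was the only one of the 10 with no count in either undifferentiated library. It lies opposite NDUFAF6, which encodes an assembly factor of respiratory complex I. It had 22 and 28 counts in control, 9 and 24 with micelles without lipid and 23 and 28 with lipid micelles. Against 3 counts per undifferentiated library, its level in control cells was at least 7.91-fold higher (adjusted p = 3.52e-05 by edgeR).

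A few smORFs had 3 counts or fewer in every library on 1 side of differentiation and 10 or more in every library on the other. In 33 smORFs of 16 host genes, in 20 overlap clusters, each of the 6 differentiated libraries had 10 counts or more and both undifferentiated libraries had 3 or fewer. These 33 were 3.93% of the 839, beside 2.48% of the other 4554 non-coding smORFs and 1.38% of all 24199. The opposite pattern, with 10 or more in both undifferentiated libraries and 3 or fewer in all 6 differentiated ones, was seen in 6 smORFs of 4 host genes, 0.715% of the 839, beside 0.264% of the other non-coding smORFs and 0.438% of all. These 6 were IEC_19915, IEC_19916 and IEC_19917 in ENSG00000241593, IEC_20868 in ENSG00000254153, IEC_12888 in ENSG00000271201 and IEC_12602 in ENSG00000287811. Both patterns take in modest changes at low counts. The ratio of control to undifferentiated cells was 5.62 for IEC_06185 (95% counting interval 2.16 to 18.5). The ratio of undifferentiated to control cells was 3.74 for IEC_12602 (95% counting interval 1.46 to 11.3).

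**Figure D3:**
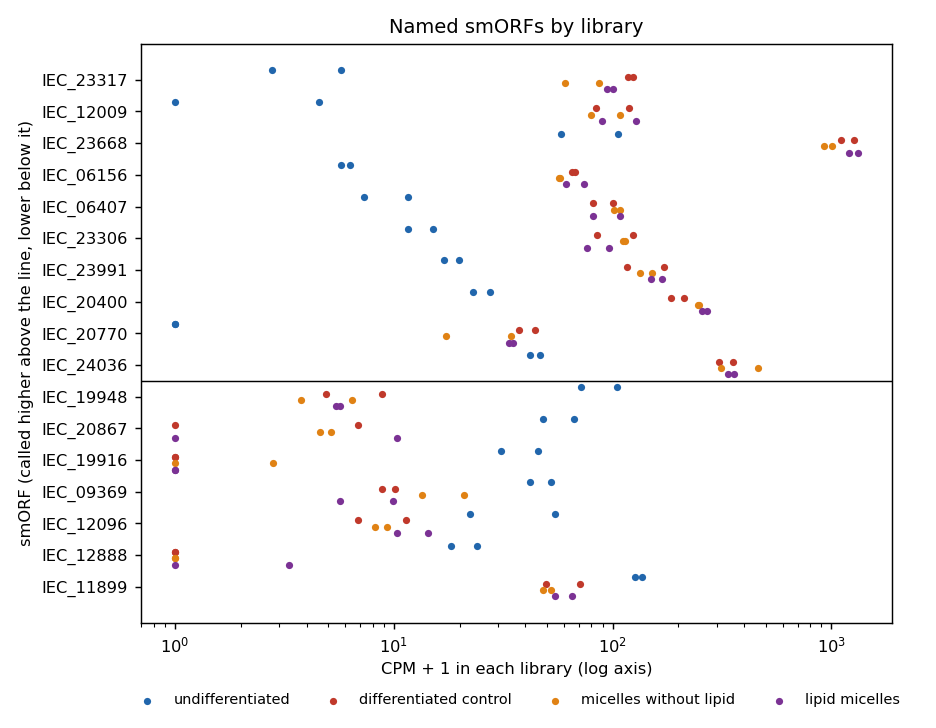
CPM + 1 in each of the 8 libraries (x axis, logarithmic) for the 10 smORFs most raised and the 7 called lower, with 1 smORF shown per host gene. Colours mark the 4 groups. In the upper panel the undifferentiated libraries lie to the left of all differentiated ones, and in the lower panel they lie to the right.

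Falls were fewer and came from 8 host genes. With 1 smORF kept per gene, 7 were called lower. IEC_19948 (chr10:47985983-47991725, minus strand, 17 codons in 2 exons of ENSG00000276850) had 66 and 40 counts in undifferentiated libraries, 2 and 6 in control, 3 and 2 with micelles without lipid and 3 and 4 with lipid micelles. Its log2 fold change was -3.78 ± 0.48 (SE, adjusted p = 1.30e-05 by edgeR). In IEC_19948 83.3% of the 28-base windows occur more than once in hg38, so its reads cannot be assigned to this locus with certainty.

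IEC_19916 (43 codons in 2 exons of ENSG00000241593, chromosome 3) lies 234259 bases from GBE1, the gene of the glycogen branching enzyme and the nearest coding gene. It had 19 and 25 counts in undifferentiated libraries, 0 and 0 in control, 1 and 0 with micelles without lipid and 0 and 0 with lipid micelles. The control value was therefore at least 7.61-fold lower (adjusted p = 2.27e-04 by edgeR). In ENSG00000241593 4 smORFs were called lower, all with undifferentiated counts between 9 and 25 a library. IEC_20867 (31 codons, ENSG00000254153, named LINC02950 in GENCODE 44, chromosome 8) had 30 and 37 counts in undifferentiated libraries, 3 and 0 in control, 2 and 3 with micelles without lipid and 0 and 8 with lipid micelles. The ratio of undifferentiated to control cells was 23.8 (95% counting interval 7.82 to 119; adjusted p = 4.78e-04 by edgeR), and with DESeq2 the adjusted p was 0.0667.

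IEC_12888 (31 codons, ENSG00000271201, chromosome 14) had 11 and 13 counts in undifferentiated libraries, 0 and 0 in control, 0 and 0 with micelles without lipid and 0 and 2 with lipid micelles, so that control cells were at least 4.14-fold lower (adjusted p = 0.00229 by edgeR). IEC_09369 (55 codons, first codon TAC, ENSG00000257883, chromosome 12) had 26 and 29 counts in undifferentiated libraries, 4 and 7 in control, 11 and 9 with micelles without lipid and 6 and 4 with lipid micelles, a log2 fold change of -2.40 ± 0.48 (SE, adjusted p = 0.00104 by edgeR). Both undifferentiated libraries lay above every differentiated one in these smORFs.

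IEC_12096 (61 codons, ENSG00000287811, chromosome 6) starts 1306 bases from LCA5, a ciliary gene on the other strand. It had 34 and 12 counts in undifferentiated libraries, 3 and 8 in control, 4 and 6 with micelles without lipid and 9 and 8 with lipid micelles, a log2 fold change of -2.13 ± 0.56 (SE, adjusted p = 0.00683 by edgeR). This call rested on undifferentiated replicate 1, without which the log2 fold change was -1.31 (adjusted p = 0.202 by edgeR), and DESeq2 gave an adjusted p of 0.0568.

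IEC_11899 (76 codons, first codon CCA) lies in ENSG00000239467 on chromosome 2, over a same-strand exon of ERICH2, a gene for a glutamate-rich protein. It had 80 and 76 counts in undifferentiated libraries, 25 and 54 in control, 26 and 37 with micelles without lipid and 36 and 55 with lipid micelles, a log2 fold change of -1.11 ± 0.29 (SE, adjusted p = 0.00691 by edgeR). Without control replicate 1 the log2 fold change was -0.84 (adjusted p = 0.0925 by edgeR). The gene holds 13 of the 26 smORFs called lower, all in 1 cluster of overlapping frames. Without ENSG00000239467 13 smORFs were called lower, and the count also depended on single libraries, with 12 lower without control replicate 1, 8 without undifferentiated replicate 1 and 14 without undifferentiated replicate 2.

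The host genes with the most smORFs differed in direction. ENSG00000239467 (chr2:170766936-170777681) held 20 smORFs, of which 18 were tested with log2 fold changes between -1.45 and -0.77. ENSG00000254290 (chr8:37597635-37599856) held 19, in 9 clusters and 95926 bases or more from ZNF703, which encodes a zinc finger corepressor. Of its 17 tested smORFs 10 were called higher and 0 lower, and the log2 fold changes ran from 0.90 to 3.92. Its most counted smORF, IEC_20813 (49 codons), had 21 and 20 counts in undifferentiated libraries, 132 and 166 in control, 151 and 154 with micelles without lipid and 141 and 190 with lipid micelles, a log2 fold change of 2.78 ± 0.30 (SE, adjusted p = 2.00e-06 by edgeR).

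ENSG00000224271 (chr22:47631680-47686689), named EPIC1 in GENCODE 44, held 18 smORFs in 2 clusters. All 18 were tested and 17 were called higher, with log2 fold changes between 1.42 and 2.48. Its most counted smORF, IEC_11632 (111 codons), had 7 and 7 counts in undifferentiated libraries, 18 and 36 in control, 14 and 35 with micelles without lipid and 23 and 51 with lipid micelles, a log2 fold change of 1.81 ± 0.49 (SE, adjusted p = 0.00801 by edgeR). ENSG00000256546 (chr12:122063521-122068579), named LINC02985 in GENCODE 44, lies 1477 bases from BCL7A, which encodes a subunit of SWI/SNF chromatin remodelling complexes. It held 13 smORFs, of which 10 were tested and 0 were called, with log2 fold changes between -0.05 and 0.75. Its most counted smORF, IEC_11681, had 20 and 24 counts in undifferentiated libraries, 17 and 29 in control, 28 and 22 with micelles without lipid and 29 and 44 with lipid micelles, so the groups overlapped.

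Of the 21 host genes with 5 or more smORFs tested, 19 had a median log2 fold change above 0, 14 held a smORF called higher, and 6 held no call. The spread within a gene was wide in ENSG00000254290 and narrow in ENSG00000239467.

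**Figure D4:**
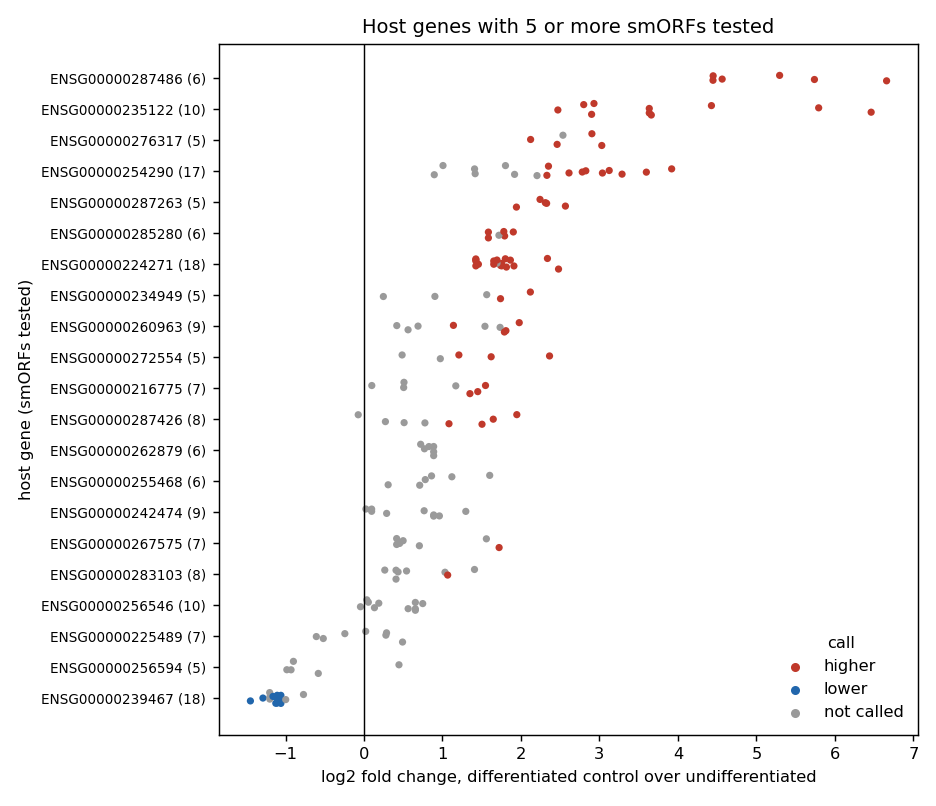
Log2 fold change in differentiated control against undifferentiated cells (x axis) for each smORF of the 21 host genes with 5 or more smORFs tested, ordered by their median, with the number tested in parentheses. Points are smORFs, coloured by call, with random vertical offsets so that they can be seen. Overlapping frames of a gene share reads. ENSG00000239467 lies lowest, with all 18 values below 0, and ENSG00000287486 lies highest, with all 6 called higher.

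The most abundant smORFs were ranked by mean CPM over the 8 libraries, of which 6 are differentiated, so the ranking favours smORFs that are high in differentiated cells. The tested smORFs had a median of 156 CPM per kb, from 24.9 to 2695. The 8 host genes with the highest mean CPM included those of IEC_23668, IEC_24036, IEC_20813 and IEC_20400, given above. IEC_12420 (94 codons, ENSG00000268756, chromosome 19), at 1437 CPM per kb, lies opposite ECH1, which encodes an enoyl-CoA hydratase-like enzyme of fatty acid oxidation. It had 60 and 27 counts in undifferentiated libraries, 213 and 467 in control, 220 and 435 with micelles without lipid and 371 and 450 with lipid micelles, a log2 fold change of 2.84 ± 0.33 (SE, adjusted p = 6.16e-06 by edgeR). In IEC_12420 52.2% of the 28-base windows occur more than once in hg38.

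IEC_09922 (35 codons, ENSG00000261058, chromosome 16), at 1302 CPM per kb, lies 15734 bases from LDHD, the gene of D-lactate dehydrogenase. It had 26 and 24 counts in undifferentiated libraries, 84 and 149 in control, 85 and 123 with micelles without lipid and 104 and 149 with lipid micelles, a log2 fold change of 2.10 ± 0.28 (SE, adjusted p = 2.78e-05 by edgeR). IEC_10811 (51 codons, ENSG00000216775, chromosome 6), at 1109 CPM per kb, lies 6247 bases from TMEM14A, which encodes a mitochondrial membrane protein. It was not called, with 93 and 79 counts in undifferentiated libraries, 133 and 116 in control, 88 and 104 with micelles without lipid and 125 and 147 with lipid micelles, and a log2 fold change of 0.51 ± 0.28 (SE, adjusted p = 0.166 by edgeR).

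IEC_08790 (31 codons, ENSG00000254682, chromosome 11), at 1787 CPM per kb, lies opposite DHCR7, the gene of the last enzyme of cholesterol synthesis. It had 48 and 45 counts in undifferentiated libraries, 59 and 149 in control, 111 and 208 with micelles without lipid and 134 and 152 with lipid micelles. Its log2 fold change of 1.01 ± 0.31 (SE, adjusted p = 0.0163 by edgeR) lay at the fold threshold. The log2 fold change fell under 1 with DESeq2 size factors (0.99), with 1 smORF per overlap cluster (0.98) and with the replicate block (0.98). The call was also lost without control replicate 2 (log2 fold change 0.61, adjusted p = 0.241 by edgeR) and without undifferentiated replicate 1 (0.97, adjusted p = 0.0884) or 2 (1.07, adjusted p = 0.0613).

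Position relative to coding genes was set beside the calls. Of the smORFs opposite a coding gene 101 were tested, 47 were called higher and 1 lower, with a median log2 fold change of 1.28. Head to head, 83 were tested, 37 were higher and 2 lower, with a median of 1.23. With no coding gene within 5 kb, 181 were tested, 77 were higher and 9 lower, with a median of 1.39. In other arrangements within 5 kb, 42 were tested, 16 were higher and 1 lower, with a median of 1.19. These 4 classes had between 38.1% and 46.5% called higher. The 21 tested smORFs over same-strand coding exons differed in direction, with 3 higher, 13 lower and a median of -1.10, but 18 of them belong to ENSG00000239467.

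**Figure D5:**
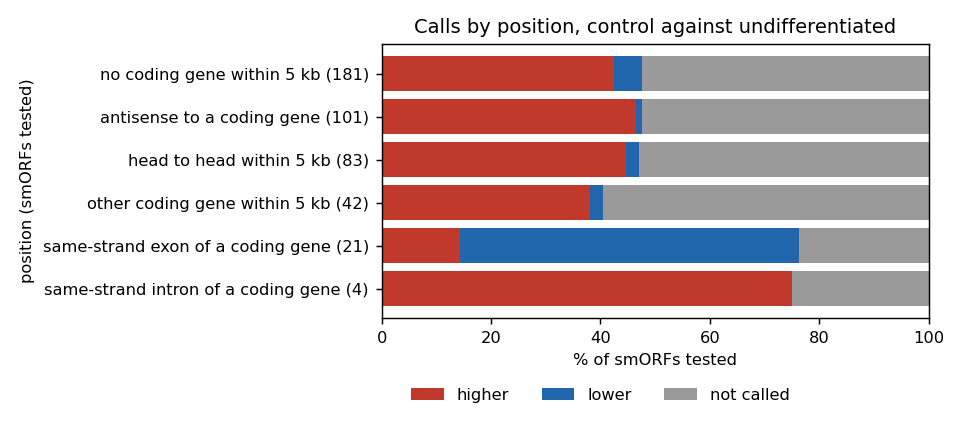
Percent of the smORFs tested that were called higher, lower or not called in control against undifferentiated cells (x axis), by position relative to coding genes of GENCODE 44, with the number tested in parentheses. The share called higher lies between 38.1% and 46.5% in the 4 large classes, and the class over same-strand coding exons is mostly 1 host gene.

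The coding gene opposite or head to head could be followed for 34 host genes, though only through smORFs assigned to it that were tested. The location classes of those smORFs are not separated here. Across these 34 pairs the median log2 fold change was 1.16 for the smORF in the gene without a symbol and 0.07 for the smORFs of its coding neighbour, and the first was the higher in 29 of the 34. Upstream smORFs as a class had a median of -0.21, against 1.22 for the 432 tested here. The 29 of 34 were not set against this class difference and cannot be told apart from it. The signs matched in 18 of 34 pairs. Pearson's r was -0.09 over the 17 antisense pairs and 0.58 over the 17 head-to-head pairs, where Spearman's rho was 0.24. The value of 0.58 rested on IEC_12096 and LCA5, and over the other 16 pairs r was 0.10 and rho 0.09. Both values come from the same libraries and are given as a description. Among the pairs, IEC_23668 had a log2 fold change of 3.86 and the 21 smORFs of TULP4 a median of 1.44, whereas IEC_08790 and the 8 smORFs of DHCR7 lay at 1.01 and 0.89. The smORFs of TMEM45B, a membrane protein gene, had a median of 1.74, beside 1.78 for IEC_23493 and 1.50 for IEC_23497 in 2 genes head to head with it. These 2 were picked out after their values were seen.

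Sequence features were set beside the calls in the same way. The 296 tested smORFs that begin with ATG had a median log2 fold change of 1.29, with 124 called higher and 12 lower, and the 136 that begin with another codon had 1.13, with 59 higher and 14 lower. Single-exon smORFs had a median of 1.29 and spliced ones 1.03. The median was 1.09 where a repeat was overlapped and 1.30 where none was. In the 332 tested smORFs with no repeated 28-base window the median was 1.29, with 141 higher and 21 lower, and in the 94 with at least 1 repeated window it was 0.89, with 37 higher and 5 lower. The 35 tested smORFs with a pseudogene among their host biotypes had 10 called higher and 0 lower, with a median of 0.51. None of these splits was tested.

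The remaining comparisons asked whether micelles changed the smORFs in differentiated cells. No smORF of the 432 tested was called in any of the 3 contrasts by edgeR, nor by DESeq2. All smORFs together gave 0% called in each contrast, so the count of 0 is that of the whole table. A fitted log2 fold change of 1 or more in size still occurred. It was found in 22 smORFs with micelles without lipid against control, 27 with lipid micelles against control and 16 between the micelle groups. With 2 libraries a group, changes of this size could go uncalled, so 0 calls do not show that micelles had no effect. An unadjusted p under 0.05 was found for 12 smORFs with micelles without lipid against control, 14 with lipid micelles against control and 13 between the micelle groups. These are 2.78%, 3.24% and 3.01% of those tested, where all smORFs had 4.08%, 4.66% and 4.11%. The medians of the log2 fold changes were 0.00, 0.02 and 0.03. The interquartile range of the log2 fold changes ran from -0.30 to 0.27 for micelles without lipid against control, from -0.30 to 0.27 for lipid micelles against control, and from -0.30 to 0.29 for lipid micelles against micelles without lipid. The first 2 contrasts share the control libraries.

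For each contrast the pair of host genes with the smallest unadjusted p is given, none of which passed the adjustment. With micelles without lipid against control, these were IEC_11599 and IEC_10853. IEC_11599 (54 codons, ENSG00000286024) lies opposite BCAT2, which encodes the mitochondrial branched-chain aminotransferase, and had 22 and 40 counts in control, 10 and 15 with micelles without lipid and 24 and 34 with lipid micelles, a log2 fold change of -1.29 ± 0.41 (SE, adjusted p = 1 by edgeR). IEC_10853 (111 codons, ENSG00000270504), opposite PXDC1, had 5 and 6 counts in control, 11 and 21 with micelles without lipid and 13 and 15 with lipid micelles, a log2 fold change of 1.51 ± 0.50 (SE, adjusted p = 1 by edgeR).

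With lipid micelles against control, IEC_09937 (76 codons, ENSG00000259768, named ZFHX3-AS1 in GENCODE 44) lies opposite ZFHX3, a transcription factor gene. It had 9 and 11 counts in control and 3 and 2 with lipid micelles, a log2 fold change of -2.20 ± 0.77 (SE, adjusted p = 0.957 by edgeR). IEC_06280 (10 codons, ENSG00000236449) had 11 and 24 counts in control and 10 and 9 with lipid micelles, a log2 fold change of -1.10 ± 0.45 (SE, adjusted p = 0.957 by edgeR), with 5 and 9 counts with micelles without lipid.

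Between the micelle groups, IEC_22803 (42 codons, ENSG00000272554) lies 1199 bases from THRB, a thyroid hormone receptor gene, and had 70 and 64 counts with lipid micelles and 21 and 42 with micelles without lipid, a log2 fold change of 0.86 ± 0.33 (SE, adjusted p = 0.999 by edgeR). IEC_11914 (73 codons, ENSG00000258526), head to head with FBXO33, a ubiquitin ligase subunit gene, had 5 and 1 counts with lipid micelles and 9 and 10 with micelles without lipid, a log2 fold change of -1.86 ± 0.73 (SE, adjusted p = 0.999 by edgeR).

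IEC_10748 and IEC_23988 are named in the study, and few Caco-2 reads fell in either. IEC_10748 (48 codons, ENSG00000226025, chromosome 19) had 0 and 0 counts in undifferentiated libraries, 1 and 2 in control, 0 and 1 with micelles without lipid and 0 and 0 with lipid micelles. IEC_23988 (66 codons, ENSG00000222032, chromosome 2) had 1 count in 1 library with micelles without lipid and 0 in the other 7. At these counts no comparison can be made.

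The labels of the cells were checked through smORFs in marker genes. Of 21 genes of enterocytes and colon epithelium 8 had a smORF tested, and of these 19 smORFs 12 were higher and 1 lower in control cells (median log2 fold change 2.06). Sucrase-isomaltase and lactase, among others, held no smORF, so the list is read in part. Of 12 proliferation genes 6 had a smORF tested, and of 17 smORFs 0 were higher and 16 lower (median -3.95). The counts of that list ran from 3635 to 3716 in undifferentiated and from 200 to 354 in differentiated libraries, so growth markers moved with the comparison of differentiated against undifferentiated cells, and their part in the results above was not tested. Of 8 fibroblast and 8 blood cell genes 0 had a smORF tested, and each list held between 0 and 21 counts a library.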

How the data were processed

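The authors aligned Ribo-Seq reads to hg38 with STAR, called smORFs with RibORF on a StringTie transcriptome over several cell types, and deposited raw counts of reads per smORF made with HOMER. They also deposited RibORF and PhyloCSF scores, lengths and coordinates. How the counting treated strand, exons and multi-mapping reads is not given in the sources used here. The smORFs and the lists of marker genes were chosen with earlier results of these data known.

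Groups came from the labels. Counts were tested with edgeR 4.0.16 (R 4.3.3) using filterByExpr, TMM scaling and a quasi-likelihood fit to all 8 libraries, with p-values adjusted by Benjamini-Hochberg over the 15182 smORFs tested. smORFs with an adjusted p under 0.05 were called where the log2 fold change was 1 or more in size. The SE was derived from the F statistic. Nothing in the labels says that replicates came from separate cultures, so p-values measure the spread between these libraries, which may be technical. CPM is relative to the TMM-scaled total of smORF counts, and 3 counts correspond to between 3.49 and 5.86 CPM. For each host gene the most counted smORF was kept, and the named ones were the 10 called higher and up to 10 called lower with the largest changes, the 8 most abundant, the 4 genes with most smORFs, 2 per micelle contrast and those the study names. Others are marked as chosen after their values were seen. Some sequences are not reported here. Positions came from GENCODE release 44, and 837 of the 839 deposited sequences equalled hg38. Equal replicate numbers correlated at 0.198, 0.119 and 0.109 (deviations from the group mean) between differentiated groups and at -0.065 to 0.021 with undifferentiated cells. The alternatives were DESeq2 1.42.0, other scaling, filters and sample sets, 1 smORF per cluster, a replicate block, and each library left out. The fits were tested on simulated data. Python 3.11.15, pandas 2.3.3, scipy 1.17.1 and matplotlib 3.10.9 were used.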

Additional observations from a re-analysis of the deposited data

How the results depend on the processing

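Of the values named for single smORFs under an alternative, 387 had the same sign and the same call as reported, 10 had the same sign and lost the call, and 0 changed sign. The calls of IEC_10880 and IEC_12602 that were lost with the replicate block, given below, are not among these 10. A smORF filtered out under an alternative gave no value there, as with IEC_23317 at 10 counts in every library. The number of smORFs called in control against undifferentiated cells was 209, with 33 (31 higher, 2 lower) at 10 counts in every library, 106 (94 higher, 12 lower) with 1 smORF per overlap cluster and 124 (116 higher, 8 lower) with DESeq2, where fewer smORFs were tested in the first 2. Leaving out 1 library gave 134 to 232 calls, 126 to 206 higher and 8 to 28 lower. The lower count was 15 with only the 2 groups compared, and 13 without members over same-strand coding exons or without ENSG00000239467, 2 alternatives chosen after seeing the data. Another of this kind, with no repeated 28-base window, left 141 higher and 21 lower. Apart from the filter of 10 counts in every library, the counts under these alternatives were not set beside a share over all smORFs. The median log2 fold change was 0.78 at 10 counts in every library, 0.90 with DESeq2, 0.90 without a filter, 1.37 with only the 2 groups compared, and 1.12 to 1.26 with 1 library left out.

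With 1 smORF per overlap cluster the share of counts was 1.02%, 2.46%, 2.27% and 2.35% in undifferentiated, control, micelles without lipid and lipid micelles. Without the most counted smORF, it was 1.76% in control and 1.66% with micelles without lipid. In the same order of groups the mean number detected was 335.5, 514.5, 526.5 and 538.5 at 5 counts, and 67, 145.5, 150.5 and 187.5 at 20 counts. With libraries thinned it was 124 in undifferentiated cells, 267 for micelles without lipid and 260 for lipid micelles. Undifferentiated cells had the lowest value under each of these settings.

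With the replicate number as a block, 178 smORFs were higher and 25 lower in control against undifferentiated cells, and 0 were called in each micelle contrast, fitted on the differentiated libraries alone. Unadjusted p fell under 0.05 there for 18, 18 and 13 smORFs. Among the 40 named smORFs tested in control against undifferentiated cells, the block ended 3 calls, those of IEC_08790 (log2 fold change 0.98), IEC_10880 (adjusted p = 0.0511 by edgeR) and IEC_12602 (adjusted p = 0.0670), and changed no other.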
